A study of Mus musculus with 20 samples.

Results

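The genes that mark homeostatic microglia were followed through every library of the series. They were chosen by name as P2ry12, Tmem119, Cx3cr1, Sall1, Gpr34, Siglech, Olfml3, Csf1r and Fcrls, each of which matched a single gene, giving 9 of the 45705 genes in the table. All 9 also passed the filter on low values and were among the 27614 genes tested. The series holds 20 RNA-seq libraries of cells sorted from the periventricular zone of Swiss Webster mouse pups at postnatal day 5, with 5 sorted populations in each of 4 batches. Pups of both sexes were used, with no treatment or altered allele named, and the pups of a litter were pooled, so that a library has no single animal behind it. Whether a batch was 1 litter or several is not given in the sources used here, and p-values measure only the spread between libraries. Sorting used antibodies against NG2, CD140a, CD133 and CD15 (LeX), and none was described as used to mark or exclude myeloid cells.

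The 5 gates were as follows. NSC, the neural stem cell gate, held NG2- CD140a- CD133+ CD15+ cells. BNAP/GRP1 held NG2+ CD140a- CD133- CD15+ cells, and GRP2/MP3 held NG2+ CD140a- CD133- CD15- cells. GRP3 held NG2+ CD140a+ CD133- CD15- cells, and PFMP held NG2+ CD140a+ CD133- CD15+ cells. NSC was labelled as neural stem cells and the other 4 populations as neural progenitors. Libraries carry the name of their gate followed by their batch number, as in GRP2/MP3 2.

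Microglia are the resident macrophages of the brain parenchyma. In the healthy brain they are told from other macrophages by surface receptors that sense nucleotides, lipids and chemokines, by the transcription factor SALL1, and by secreted or scavenger proteins such as OLFML3 and FCRLS. Their survival depends on the receptor CSF1R, which nearly all macrophages carry, and their identity depends on TGF-beta signalling.

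Expression was given as RPKM, that is, reads scaled to gene length and to sequencing depth. PolyA RNA was amplified before library preparation, and whether reads then followed gene length was not tested. Levels of different genes, their sums and their ratios are therefore approximate. The RPKM totals ranged from 955067 to 2407643 per library, and read totals were not given in the sources used here. A depth estimated from the most frequent value of RPKM times length, taken as 1 read, was 120000 reads for BNAP/GRP1 4, against 358000 to 3112000 for the other libraries of batches 1, 2 and 4. In BNAP/GRP1 4 the median over all genes was 8.30 RPKM, the highest of the 20 libraries, and no member there rested on more than an estimated 9.46 reads. The 5 libraries of batch 3 stood apart from the other 15. In a fit across the gates, 14 of 15 pan-macrophage genes were higher there and all 8 oligodendrocyte progenitor genes lower. Of all genes tested, 12.5% were called higher and 22.6% lower. The latter did not hold in every gate, since Pdgfra was at 1.15 RPKM in NSC 3 and 0.731 RPKM in NSC 2. Within batch 3 these genes were still higher in GRP3 and PFMP than in its other gates. Olig1 was at 7.70 and 7.54 RPKM in GRP3 3 and PFMP 3, against 0.211 to 1.22 RPKM in the others. Genes of alveolar macrophages were at high levels in that batch, with a summed level of 2216 to 2523 RPKM over 14 genes against 2.95 to 152 RPKM elsewhere. Genes of lung epithelium summed to 921 to 1050 RPKM against 0.67 to 101 RPKM, and Scgb1a1 alone gave 839 to 965 RPKM of this. Several genes of that list were not high in batch 3. Ager was at 0 to 0.649 RPKM there and 21.4 RPKM in NSC 4. Sftpc was at 5.91 to 12.1 RPKM there and 7.57 RPKM in BNAP/GRP1 4. All 20 libraries are described as periventricular, and whether batch 3 held the same tissue as the others cannot be told from the files. Results that rest on batch 3 or on BNAP/GRP1 4 are therefore given with and without them.

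The promoters of 6 of the 9 members were found in the RefSeq table of build GRCm38.p6, and there was no entry for Tmem119, Gpr34 or Csf1r. Those of P2ry12, Cx3cr1 and Fcrls are shown because these genes reached the highest levels or followed the other members most closely. Each run is the 250 bases before the RefSeq start of transcription, written 5′ to 3′ on the strand of the gene, and all lie on the minus strand, at chr3:59262986-59263235 for P2ry12, chr9:120068297-120068546 for Cx3cr1 and chr3:87263525-87263774 for Fcrls. The gene spans given below are from GENCODE and reach past these starts for Cx3cr1 and Fcrls. The run of Cx3cr1 lies wholly within its GENCODE span, and that of Fcrls mostly so.

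P2ry12: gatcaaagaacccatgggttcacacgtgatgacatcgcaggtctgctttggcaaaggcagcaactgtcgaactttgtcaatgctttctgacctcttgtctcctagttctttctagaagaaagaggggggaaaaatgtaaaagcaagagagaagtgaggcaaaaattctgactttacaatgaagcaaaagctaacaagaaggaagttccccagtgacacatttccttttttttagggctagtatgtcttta

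Cx3cr1: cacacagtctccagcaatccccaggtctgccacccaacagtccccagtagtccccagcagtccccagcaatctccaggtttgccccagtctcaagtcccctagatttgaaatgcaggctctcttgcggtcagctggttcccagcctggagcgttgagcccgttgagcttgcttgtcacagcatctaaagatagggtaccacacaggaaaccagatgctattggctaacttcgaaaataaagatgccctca

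Fcrls: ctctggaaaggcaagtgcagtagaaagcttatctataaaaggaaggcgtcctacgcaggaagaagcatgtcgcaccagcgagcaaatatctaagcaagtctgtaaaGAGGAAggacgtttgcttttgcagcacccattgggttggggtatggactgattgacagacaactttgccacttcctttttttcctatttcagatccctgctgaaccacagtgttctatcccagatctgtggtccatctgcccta

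Capitals mark GAGGAA, the core letters of the site bound by PU.1, the myeloid transcription factor encoded by Spi1. On either strand these letters occurred in 23.3% of 32851 promoters of the same length, and among the members with an entry in Fcrls alone, starting 144 bases before the RefSeq start and within the GENCODE span. The longer run GAGGAAGT, which contains the first, was in 2.44% of promoters and in 0 of the 6 members. These matches describe letters in this window and say nothing of binding.

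The receptors among the members were high in BNAP/GRP1 and GRP2/MP3 of batches 1 and 2 and low in the other gates of those batches. P2ry12, the ADP receptor that steers microglial processes, is at chr3:59216272-59262871 on GRCm38. Its level was 368, 64.7, 1.49 and 11.5 RPKM in BNAP/GRP1 1, 2, 3 and 4, and 90.1, 1101, 1.22 and 60.7 RPKM in GRP2/MP3 1, 2, 3 and 4. In NSC, GRP3 and PFMP of batches 1, 2 and 4 it ranged from 0.820 to 13.05 RPKM with a median of 2.97 over 9 libraries. Thus the 4 libraries of BNAP/GRP1 and GRP2/MP3 in batches 1 and 2 lay above every other library, although they themselves spread widely. The mean was 112 ± 174 RPKM in BNAP/GRP1 and 313 ± 526 RPKM in GRP2/MP3 (SD, n = 4), so that the SD exceeded the mean in both.

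Cx3cr1 encodes the receptor for fractalkine, the chemokine CX3CL1 (chr9:119901616-120069879). Its level in batches 1 to 4 was 231, 39.2, 0.478 and 10.7 RPKM in BNAP/GRP1 and 101, 121, 0.931 and 19.8 RPKM in GRP2/MP3. The 9 libraries of the other gates in batches 1, 2 and 4 held 0.233 to 4.22 RPKM with a median of 0.847, and did not overlap with the 6 libraries of BNAP/GRP1 and GRP2/MP3 from those batches. Of these 6, BNAP/GRP1 4 rested on an estimated 5.77 reads. In batch 3 the gene was at 0.355 to 1.18 RPKM in all gates.

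Gpr34, a receptor for lysophosphatidylserine, is on chrX:13632089-13640858. It was at 149.6, 7.25, 0.868 and 4.91 RPKM in BNAP/GRP1 and at 56.6, 94.4, 0.355 and 78.4 RPKM in GRP2/MP3. Here GRP2/MP3 4 kept a level within the range of batches 1 and 2, which no other member did. The other gates of batches 1, 2 and 4 held 0.250 to 9.23 RPKM with a median of 0.847, and PFMP 4, at 9.23 RPKM, was above both BNAP/GRP1 2 and BNAP/GRP1 4.

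Siglech encodes a sialic acid-binding lectin that signals through the adaptor TYROBP (chr7:55768178-55778925). Its level was the most even of the members across BNAP/GRP1 and GRP2/MP3 of batches 1 and 2, at 39.7, 37.6, 44.3 and 54.6 RPKM. Batch 4 gave 14.8 RPKM in BNAP/GRP1 and 13.5 RPKM in GRP2/MP3, and batch 3 gave 0.762 and 0.817 RPKM. NSC, GRP3 and PFMP of batches 1, 2 and 4 ranged from 0.0642 to 3.78 RPKM with a median of 0.395.

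Csf1r, on chromosome 18 at positions 61100598 to 61132149, encodes the receptor for CSF1 and IL-34 and is shared by macrophages in general. It was the exception among the members. In batch 3 it stood at 88.4 RPKM in PFMP, 89.4 in GRP3, 89.3 in GRP2/MP3, 90.6 in BNAP/GRP1 and 78.7 in NSC, a mean of 87.3 ± 4.87 RPKM (SD, n = 5). In batches 1, 2 and 4 it was at 127, 55.3 and 5.23 RPKM in BNAP/GRP1 and 138, 93.8 and 16.6 RPKM in GRP2/MP3, while the other gates held 1.30 to 4.47 RPKM with a median of 2.47. The batch 3 libraries thus lay inside the range of BNAP/GRP1 and GRP2/MP3 of batches 1 and 2, whichever gate they came from.

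Fcrls, Olfml3, Tmem119 and Sall1 completed the set. Fcrls encodes an Fc receptor-like scavenger protein (chr3:87250758-87263738) and was at 517, 78.6, 1.21 and 6.03 RPKM in BNAP/GRP1 and at 222, 416, 2.04 and 19.3 RPKM in GRP2/MP3. Its other gates in batches 1, 2 and 4 held 0.800 to 4.84 RPKM with a median of 1.13, below all 6 libraries of these gates from those batches. Of these, BNAP/GRP1 4 rested on an estimated 1.65 reads. Its mean of 151 ± 247 RPKM in BNAP/GRP1 and 165 ± 195 RPKM in GRP2/MP3 (SD, n = 4) again had an SD above the mean.

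Olfml3 encodes a secreted olfactomedin-like glycoprotein (chr3:103722222-103738001). It was at 99.3, 12.2, 0.640 and 14.4 RPKM in BNAP/GRP1 and at 36.1, 72.9, 0.746 and 2.15 RPKM in GRP2/MP3. Unlike the receptors, it was no higher in GRP2/MP3 4 than in the other gates, which reached 2.604 RPKM in batches 1, 2 and 4.

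Tmem119 encodes a membrane protein used as a microglial marker (chr5:113793729-113800516). Its values were 32.2, 29.6, 1.10 and 10.5 RPKM in BNAP/GRP1 and 23.1, 91.3, 1.10 and 1.92 RPKM in GRP2/MP3. GRP2/MP3 4 was below GRP3 1, which at 2.33 RPKM was the highest of the 9 other libraries of batches 1, 2 and 4.

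Sall1, the zinc finger transcription factor that maintains microglial identity (chr8:89027235-89044162), had the smallest differences between gates. It was at 34.2, 5.98, 0.0094 and 5.92 RPKM in BNAP/GRP1 and at 10.7, 37.9, 0 and 5.002 RPKM in GRP2/MP3. In NSC it was at 6.40, 3.80, 0.385 and 2.92 RPKM, and NSC 1 therefore overlapped with BNAP/GRP1 2. Over the 9 libraries of NSC, GRP3 and PFMP in batches 1, 2 and 4 the level was 0.835 to 6.40 RPKM, so the gene was present outside the gates that held the other members. GRP2/MP3 3 and GRP3 3 had it listed at 0.

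**Figure D1:**
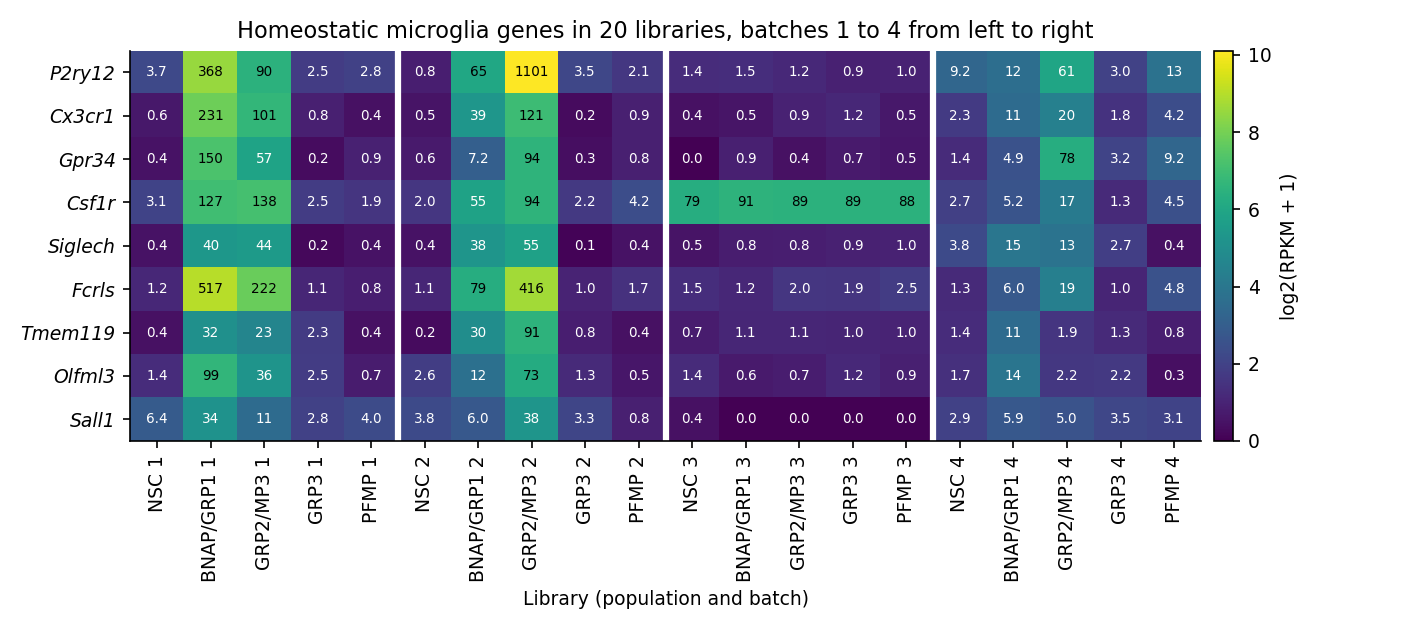
Level of the 9 genes in the 20 libraries, with genes as lines, libraries grouped by batch as columns, colour giving log2(RPKM + 1) and the printed values in RPKM. The members were high in BNAP/GRP1 and GRP2/MP3 of batches 1 and 2, while in batch 3 Csf1r alone was high, at 78.7 to 90.6 RPKM in all 5 gates.

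Over all 6 libraries of BNAP/GRP1 and GRP2/MP3 in batches 1, 2 and 4, 4 members, Cx3cr1, Siglech, Csf1r and Fcrls, lay above all 9 libraries of NSC, GRP3 and PFMP from those batches, as did 0.663% of tested genes. For Csf1r and Fcrls the margin was small, with BNAP/GRP1 4 at 5.23 and 6.03 RPKM against at most 4.47 and 4.84 RPKM. In BNAP/GRP1 4 the 4 members rested on an estimated 1.65 to 5.77 reads, and the median over all genes was 8.30 RPKM. Their place above the other gates is therefore weak in that library. Batches 1 and 2 are also given alone, because the members were highest there, and those counts are a description only. In them 8 of the 9 members, all but Sall1, were higher in each of the 4 libraries of BNAP/GRP1 and GRP2/MP3 than in all 6 libraries of NSC, GRP3 and PFMP, where 3.1% of tested genes did so. With the 3 libraries of batch 4 added to the lower side, 7 members kept apart against 1.72% of genes, and Gpr34 joined Sall1 as overlapping. In bulk libraries such as these, fewer cells of a type and less RNA per cell cannot be told apart. The summed level of the members was 330 to 2082 RPKM in those 4 libraries, 84.0 to 217 RPKM in BNAP/GRP1 4 and GRP2/MP3 4, and 11.9 to 40.4 RPKM in the other gates of batches 1, 2 and 4. Pan-macrophage genes moved with them, at a summed 6011 to 20000 RPKM, 229 to 1034 RPKM and 49.0 to 187 RPKM in the same 3 sets of libraries, and border-associated macrophage genes did so with less regularity, at 187 to 4068, 247 to 248 and 5.77 to 107 RPKM. The part of other macrophages in the result was not tested.

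Within a library the members also ranked high or low together. Their median percentile among all genes was 95.2 to 97.9 in BNAP/GRP1 and GRP2/MP3 of batches 1 and 2 and 89.8 in GRP2/MP3 4. It was 62.1 in BNAP/GRP1 4, inside the range of the other gates, which ran from 52.6 to 80.1. In GRP2/MP3 4, 6 of 9 members reached 10 RPKM, as did 23.0% of tested genes, and in BNAP/GRP1 4, 5 members did, as did 55.0% of tested genes. Pericyte genes were at a summed 7475 RPKM in GRP2/MP3 4 and 203 RPKM in BNAP/GRP1 4, against 9.505 to 532 RPKM in these gates of batches 1 and 2, and their part in the lower member levels of batch 4 was not tested.

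Differences from NSC of the same batch were then taken on the log2(RPKM + 1) scale, which understates the change of low genes. In BNAP/GRP1, 9, 7, 0 and 2 members exceeded NSC by more than 2 log2 units in batches 1, 2, 3 and 4, where 5.2%, 9.13%, 0.63% and 30% of tested genes did. The median difference of the members was 5.37, 4.64, 0.12 and 1.61, and in batch 4 the median of all genes was 1.53, so the members did not stand out from the library there. In GRP2/MP3 the counts were 8, 9, 0 and 5 members, against 8.25%, 6.66%, 0.695% and 3.77% of genes, with medians of 5.02, 5.86, 0.28 and 2.24. The 5 members in GRP2/MP3 4 were P2ry12, Cx3cr1, Gpr34, Csf1r and Fcrls, all but Siglech of the receptors together with the scavenger protein. GRP3 gave 0 members in each batch, against 5.87%, 7.04%, 0.732% and 3.53% of genes. PFMP gave 0, 0, 0 and 1, the 1 being Gpr34 in batch 4, against 4.33%, 6.53%, 0.67% and 3.6%.

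**Figure D2:**
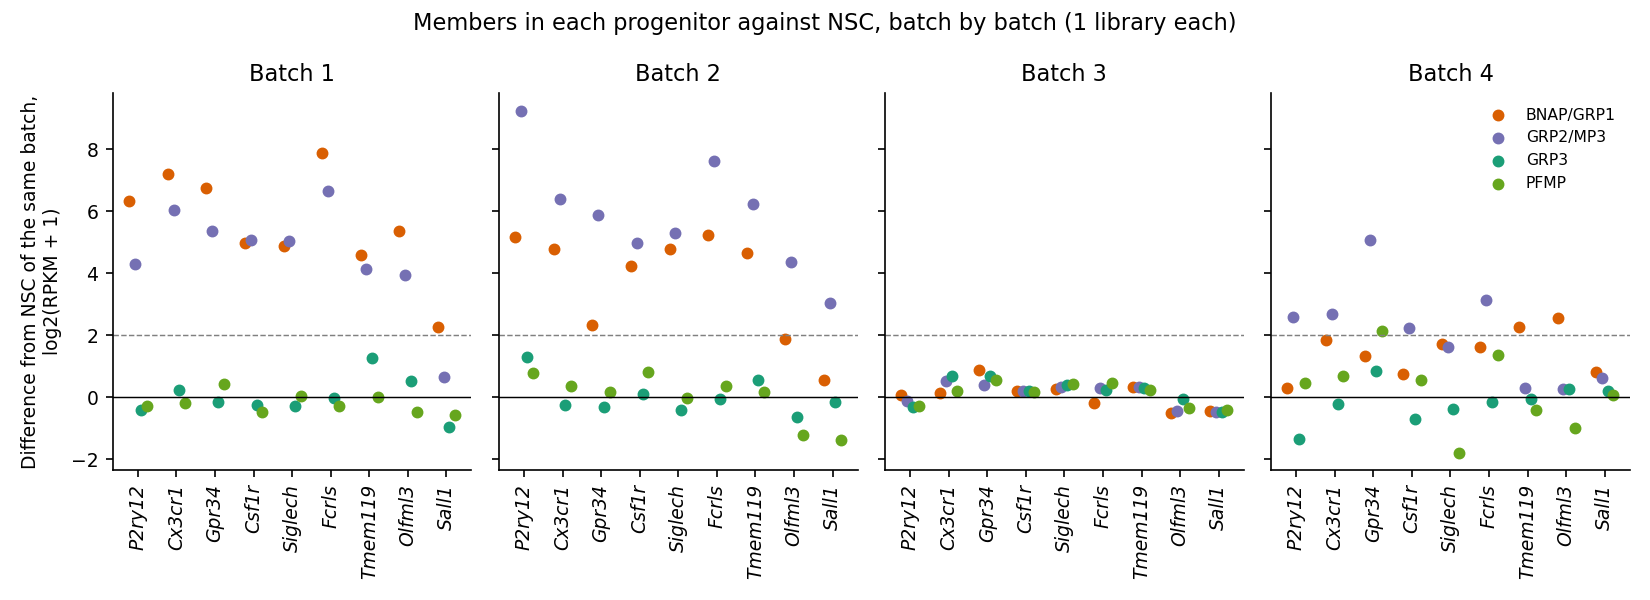
Difference of each population from NSC of the same batch in log2(RPKM + 1), with 1 panel per batch, 1 point per gene and population, and a dashed line at 2. BNAP/GRP1 and GRP2/MP3 of batches 1 and 2 had medians of 4.64 to 5.86, whereas in batch 3 the medians of both were at 0.12 and 0.28.

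The populations were next compared over all 4 batches with limma on log2(RPKM + 1), with p-values adjusted over the 27614 genes. BNAP/GRP1 exceeded NSC by 0.79 (Sall1) to 3.64 (Fcrls) log2 units, and 0 of 9 members passed an adjusted p of 0.05, where 0.76% of all genes did and 0% were called higher. At an unadjusted p under 0.05 there were 6 members. GRP2/MP3 exceeded NSC by 0.96 to 4.43 log2 units, again with 0 members called in limma, against 1.12% of genes in either direction and 0% called higher, and 7 members at an unadjusted p under 0.05. Libraries of a batch deviated together, so the fit with the batch as a block is given beside the unblocked one. It called 0 members for BNAP/GRP1, where 0.0652% of genes were called higher and 8 members had an unadjusted p under 0.05. For GRP2/MP3 it called 3 higher, against 0.174%, namely Gpr34 (limma adjusted p = 0.0275), Cx3cr1 (0.0489) and Csf1r (0.0491).

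Leaving out batch 3 and keeping the block, 4 members were higher in BNAP/GRP1 than in NSC, where 0.214% of genes were called higher. Siglech was higher by 3.78 ± 0.78 log2 units (SE, limma adjusted p = 0.0181) and Cx3cr1 by 4.61 ± 0.97 (adjusted p = 0.0222). Fcrls was higher by 4.91 ± 1.14 (adjusted p = 0.041) and Tmem119 by 3.83 ± 0.92 (adjusted p = 0.0487). The remaining 5 did not pass, with differences of 1.20 (Sall1) to 3.93 (P2ry12) and adjusted p from 0.0614 to 0.446. Without BNAP/GRP1 4 as well, 5 members passed, where 0.33% of genes were called higher.

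For GRP2/MP3 against NSC the same fit called 6 members, where 0.503% of genes were called higher. Gpr34 differed most clearly, by 5.43 ± 1.03 log2 units (SE, limma adjusted p = 0.00836), followed by Cx3cr1 with 5.03 ± 0.97 (adjusted p = 0.0101) and Siglech with 3.97 ± 0.78 (adjusted p = 0.0105). Fcrls, Csf1r and P2ry12 were higher by 5.81 ± 1.14, 4.10 ± 0.83 and 5.38 ± 1.20 (adjusted p = 0.0108, 0.0131 and 0.0244 in limma). All 5 receptors among the members were thus called. Tmem119, Olfml3 and Sall1, at 3.54, 2.85 and 1.43 log2 units, did not pass, with adjusted p of 0.0541, 0.142 and 0.628. In the same fit 6 of 8 pericyte genes were higher, with a median of 3.88 log2 units, as were 4 of 10 border-associated macrophage genes (3.32) and 9 of 15 pan-macrophage genes (5.84), while 8 of 8 ependymal genes were lower (-6.38). Their part in the result was not tested.

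The contrast of BNAP/GRP1 and GRP2/MP3 together against GRP3 and PFMP had 4 libraries in each of its populations. Over all batches it called 0 members in limma, and 0% of genes, although 8 members had an unadjusted p under 0.05. With the block 7 members were called higher, against 0.999% of genes. Sall1 and Olfml3 were not, with adjusted p of 0.164 and 0.0506. Without batch 3 and with the block, 8 members were higher, against 1.8% of genes. The differences ran from 3.44 (Tmem119, limma adjusted p = 0.01) to 5.17 ± 0.81 (Fcrls, adjusted p = 0.00441), and the lowest adjusted p was 0.0032, for Siglech at 4.36 ± 0.55. Sall1 was again the exception, at 1.79 ± 0.54 and an adjusted p of 0.105.

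**Figure D3:**
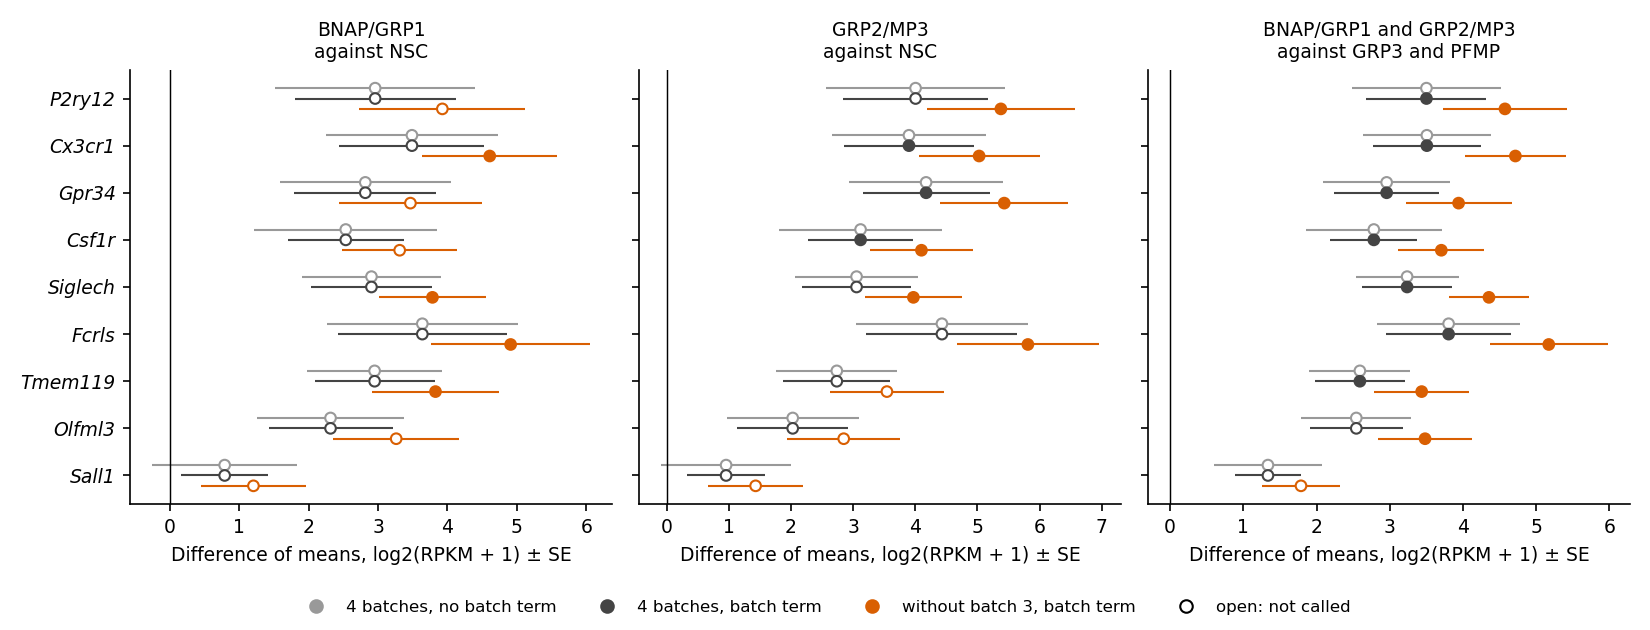
Fitted differences in log2(RPKM + 1) with standard errors as bars for the 9 genes in 3 comparisons, over all 4 batches without and with a batch term and without batch 3 with the term, where filled points passed an adjusted p of 0.05 in limma. All fitted differences lay above 0, and Sall1 had the smallest, at 0.79 to 1.79.

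No member was called between the remaining gates. GRP3 differed from NSC by -0.35 to 0.51 log2 units and PFMP from NSC by -0.76 to 0.82, with 0 members called in limma, 0 at an unadjusted p under 0.05, and 1.05% and 1.14% of genes called. PFMP and GRP3 differed by -0.78 to 0.56, again with 0 members called, 0 at an unadjusted p under 0.05 and 0% of genes called.

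Between BNAP/GRP1 and GRP2/MP3 the order of the levels turned from batch to batch. In batch 1, 7 of the 9 members were higher in BNAP/GRP1 and 2 in GRP2/MP3, namely Siglech and Csf1r, where 41.6% of genes were higher in GRP2/MP3. In batch 2 all 9 were higher in GRP2/MP3, against 42.9% of genes, by 0.52 to 4.07 log2 units with a median of 2.39. Batch 4 had 5 higher in GRP2/MP3, against 20.8% of genes, and batch 3 had 5, against 34%, with all differences within 0.46 log2 units. Over the 4 batches the fitted difference of GRP2/MP3 from BNAP/GRP1 was -0.29 to 1.36, and limma called 0 members, with 0 at an unadjusted p under 0.05 and 0% of genes called. No member therefore had a direction between these gates that held in all 4 batches.

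Batch 3 was compared with batches 1, 2 and 4 across all 5 populations. The libraries of a batch are not independent of each other, these p-values measure the spread between libraries only, and the batch cannot be told apart from the cells or tissue it held. Csf1r was higher in batch 3 by 3.14 ± 0.61 log2 units (SE, limma adjusted p = 0.000609), and 4 members were lower. These were Sall1, at -2.61 ± 0.46 (adjusted p = 0.000245), P2ry12, at -2.91 ± 0.85 (0.0127), Gpr34, at -2.26 ± 0.75 (0.0255), and Cx3cr1, at -2.19 ± 0.76 (0.0328). In all, 35.1% of genes were called, 12.5% higher and 22.6% lower, so a call by itself was common. The median over all genes was -0.64, and it moved to -0.19 after quantile normalization, under which 2 members were called, Csf1r higher and Sall1 lower. Siglech, Olfml3, Fcrls and Tmem119 did not pass, with differences of -1.27 to -1.87 and adjusted p from 0.0559 to 0.111. Without the library BNAP/GRP1 3 or without GRP2/MP3 3 the number called fell from 5 to 2, with P2ry12, Gpr34 and Cx3cr1 lost, and without PFMP 3 it rose to 7.

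The 6 libraries of BNAP/GRP1 and GRP2/MP3 in batches 1, 2 and 4, gates taken because the members were high there, were all above the 5 batch 3 libraries for 8 of 9 members, as for 15.8% of genes, and Csf1r alone of the members overlapped. For P2ry12 the median of those 6 libraries was 77.4 RPKM against 1.20 ± 0.26 RPKM in batch 3 (SD, n = 5). For Fcrls it was 150.2 RPKM against 1.83 ± 0.485 RPKM, and for Csf1r 74.5 RPKM against 87.3 ± 4.87 RPKM. Sall1 was the only member for which all 15 other libraries lay above batch 3, as for 6.97% of genes. For the other 7, the levels in batch 3 reached at most 2.46 RPKM and overlapped with those of NSC, GRP3 and PFMP in batches 1, 2 and 4.

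Set against Csf1r in the same library, P2ry12 was at a ratio of 2.89, 1.17, 0.654 and 11.7 in BNAP/GRP1 1 and 2 and GRP2/MP3 1 and 2. In the 5 libraries of batch 3 it was 0.0102 to 0.0178. The ratio of Fcrls to Csf1r was 4.06, 1.42, 1.61 and 4.43 in those 4 libraries and 0.0133 to 0.0278 in batch 3. The summed RPKM of the 8 members other than Csf1r was 3.06 to 12.8% of that of 15 pan-macrophage genes in the 4 libraries, 19.4% in GRP2/MP3 4 and 0.0201 to 0.0243% in batch 3. In the remaining gates both levels were low and their ratio carries little.

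**Figure D4:**
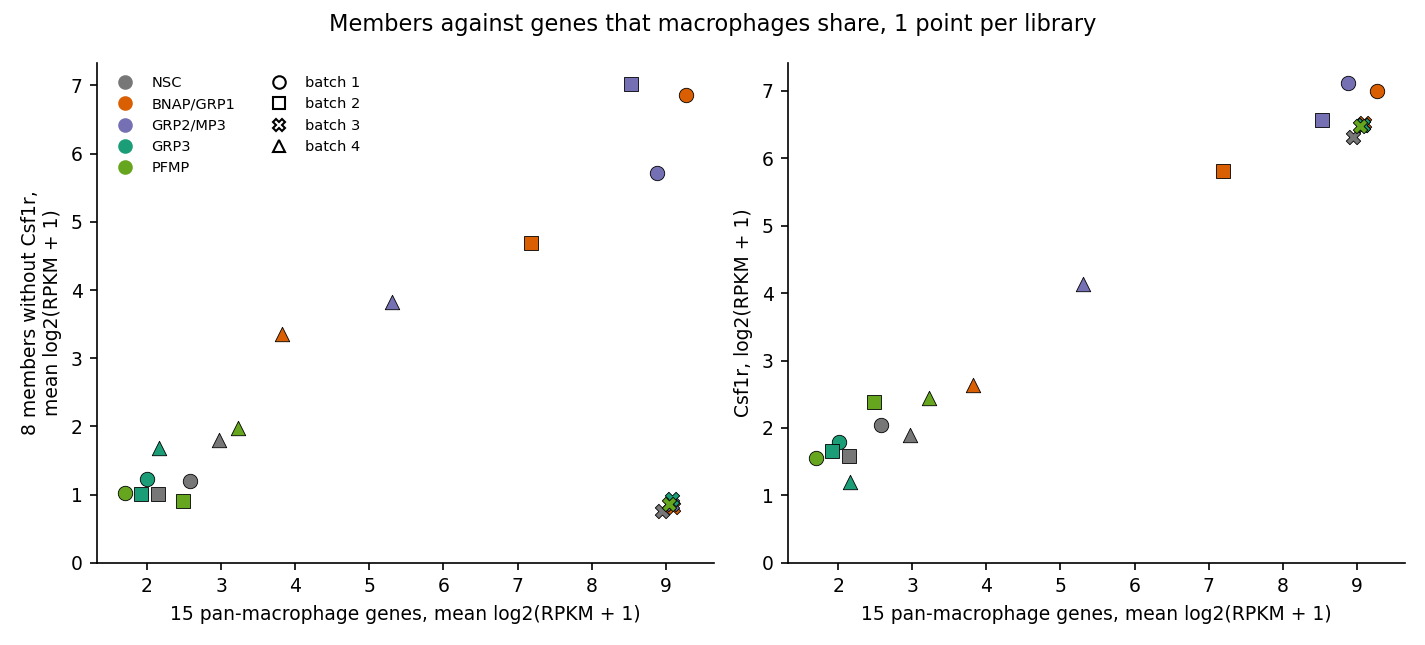
Mean log2(RPKM + 1) of the 8 members other than Csf1r (left) and log2(RPKM + 1) of Csf1r (right) against the mean of 15 pan-macrophage genes, with 1 point per library, colour for the gate and shape for the batch. The 5 libraries of batch 3 had pan-macrophage means of 8.95 to 9.09 with member means of 0.76 to 0.94, whereas BNAP/GRP1 and GRP2/MP3 of batches 1 and 2 had 7.19 to 9.27 and 4.68 to 7.02.

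Whether the difference between the gates itself changed with the batch was tested as an interaction. The difference of BNAP/GRP1 and GRP2/MP3 from NSC, GRP3 and PFMP was smaller in batch 3 for each of the 9 members, with interaction terms of -1.80 (Sall1) to -5.42 (Fcrls) log2 units. In limma 0 members were called, and 0% of genes, although 8 had an unadjusted p under 0.05. With libraries weighted by their estimated quality all 9 were called, where 5.57% of genes were called with a lower difference in batch 3. The estimation of these weights stopped before it converged, however, and left some libraries with almost no weight, so nothing is read from that count.

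Ligands, regulators and partners of the members, a list of 15 genes, were read in the same comparisons. For BNAP/GRP1 and GRP2/MP3 against GRP3 and PFMP limma called 0 over all batches (10 at an unadjusted p under 0.05), and 0% of all genes. With the block 6 were higher and 0 lower, where 0.999% of all genes were called higher. Without batch 3 and with the block 9 were higher and 0 lower, against 1.8%, with a median difference of 2.66. The 9 were Csf1, a ligand of CSF1R, the TGF-beta receptor Tgfbr2, the transcription factors Spi1, Irf8, Mef2c and Runx1, the adaptor Tyrobp, its partner receptor Trem2, and P2ry13, a second ADP receptor. Tyrobp differed by 6.34, Trem2 by 5.55, P2ry13 by 4.18, Spi1 by 3.60, Irf8 by 3.45, Csf1 by 2.95 and Mef2c by 2.00 log2 units. Il34, Cx3cl1 and Tgfb1, the other ligands, were not called.

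In batch 3, 8 genes of the same list were higher than in the other batches and 2 lower, with a median of 1.79. Of all genes, 12.5% were called higher and 22.6% lower, so a lower call by itself was common. Tgfb1, which encodes the TGF-beta ligand, rose by 5.20 ± 0.37 log2 units (SE, limma adjusted p = 6.08e-09) and stood at 75.9 to 87.0 RPKM in the 5 libraries, against at most 11.1 RPKM elsewhere. Averaged over the gates, Spi1 rose by 5.20 ± 0.56 (adjusted p = 1.21e-06), Tyrobp by 5.14 ± 1.03 (0.000762) and Trem2 by 4.80 ± 0.84 (0.000222). Spi1 was at 166 to 192 RPKM in batch 3, against at most 50.4 RPKM elsewhere. Tyrobp, at 1320 to 1464 RPKM, lay within its range of 881 to 6797 RPKM in BNAP/GRP1 and GRP2/MP3 of batches 1 and 2. Trem2 did so too, at 275 to 334 against 80.6 to 392 RPKM. The ligands Il34 and Cx3cl1 fell by 1.35 ± 0.42 and 1.68 ± 0.48 log2 units (adjusted p = 0.0193 and 0.0117). P2ry13 and Mef2c, at -0.91 and -0.89, did not pass. P2ry13 was at 99.8 and 15.3 RPKM in BNAP/GRP1 1 and 2, 31.4 and 156 RPKM in GRP2/MP3 1 and 2, and 1.46 to 2.41 RPKM in batch 3, so that its levels there were as low as those of the members.

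Another 15 genes often listed as homeostatic microglia genes behaved unevenly. In the combined contrast limma called 0 over all batches (15 at an unadjusted p under 0.05), and 0% of all genes. With the block 9 were higher, against 0.999% of all genes, and without batch 3 and with the block 10, against 1.8%. In batch 3, 7 were higher than in the other batches and 1 was lower, where 12.5% and 22.6% of all genes were. The median was 1.85, against -1.87 for the 9 members. Selplg, the ligand of P-selectin, was at 93.5 to 105 RPKM in batch 3, above the 17.99 to 35.2 RPKM of BNAP/GRP1 and GRP2/MP3 in batches 1 and 2. Slco2b1, which encodes an organic anion transporter, followed the members instead, at 17.3, 10.23, 19.4 and 21.6 RPKM in BNAP/GRP1 1 and 2 and GRP2/MP3 1 and 2 and 0.304 to 1.00 RPKM in batch 3.

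Averaged over the gates, macrophage lists other than these moved the other way from the members in batch 3. Of the pan-macrophage genes 14 of 15 were higher and 0 lower with a median of 4.54 log2 units, and of the alveolar macrophage genes 13 of 14 were higher with a median of 5.91. Genes of activated microglia had 8 of 12 higher and 0 lower, border-associated macrophage genes 5 of 10 and 0, and monocyte and neutrophil genes 6 of 10 and 1. In this fit 12.5% of all genes were called higher and 22.6% lower. Against BNAP/GRP1 and GRP2/MP3 of batches 1 and 2, not every list was higher. Genes of activated microglia summed to 15286 to 17203 RPKM in batch 3 and to 4606 to 36060 RPKM in those libraries. For border-associated macrophage genes it was 1917 to 2272 and 187 to 4068 RPKM. Chil3, an alveolar macrophage gene, was at 558 to 658 RPKM in batch 3 and at most 11.3 RPKM elsewhere. The libraries of batch 3 thus carried Csf1r with the general macrophage genes, and the other 8 members were within or below their range in NSC, GRP3 and PFMP elsewhere.

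**Figure D5:**
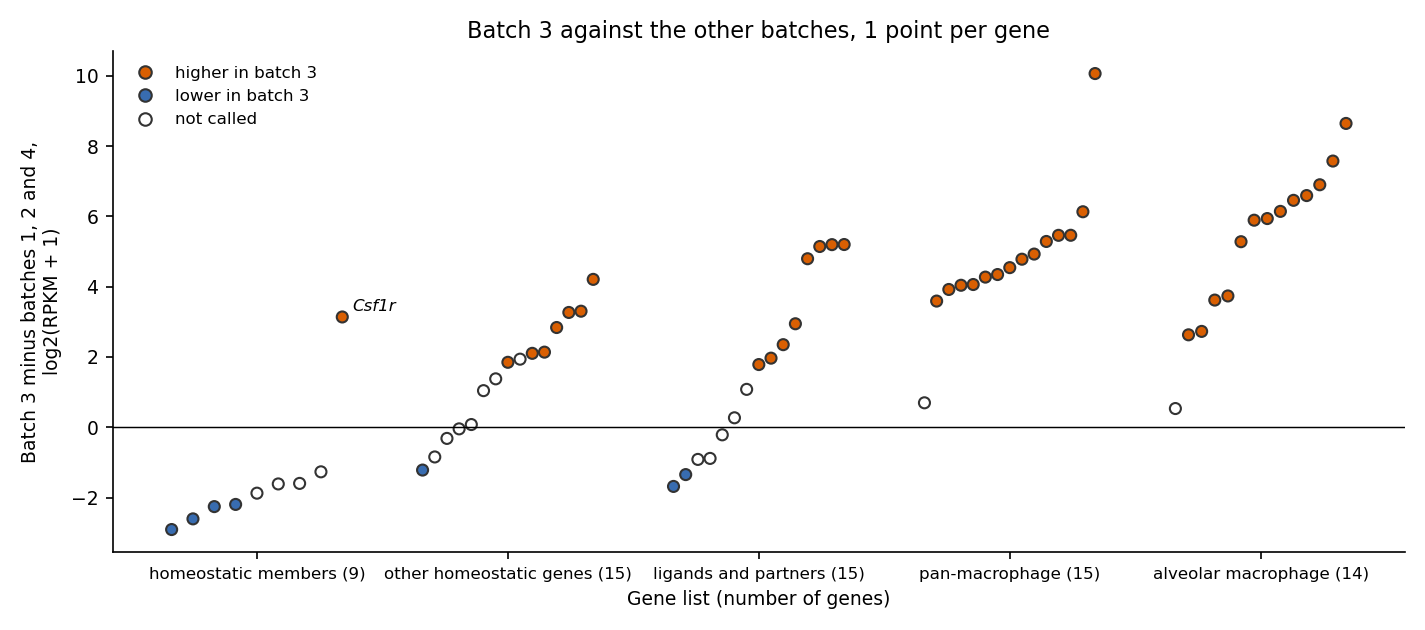
Fitted difference of batch 3 from batches 1, 2 and 4 in log2(RPKM + 1) for the genes of 5 lists, with 1 point per gene, filled where limma called it. The 9 members had a median of -1.87 and Csf1r alone stood above 0 among them, whereas the pan-macrophage and alveolar macrophage lists had medians of 4.54 and 5.91.

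Likeness between the members was described by Pearson's r of log2(RPKM + 1) between each member and the mean of the other 8 over the 20 libraries, which share batches and differ in depth. Cx3cr1 and Fcrls were closest to the rest, each with r = 0.985, then P2ry12 (0.945), Siglech (0.940), Tmem119 (0.933), Olfml3 (0.918) and Gpr34 (0.898). Sall1 had r = 0.752, and Csf1r had r = 0.436. With the mean of each batch removed Csf1r rose to 0.970 and Sall1 to 0.867, and over the 15 libraries without batch 3 Csf1r had r = 0.956. Csf1r therefore followed the other members between gates and parted from them in batch 3.

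The genes outside the set whose pattern over the 20 libraries was most like the mean of the 9 members were Crybb1 (r = 0.953), P2ry13 (0.953), Rtn4rl1 (0.950), Cryba4 (0.949), Ppfia4 (0.936), Slco2b1 (0.932), 3830403N18Rik (0.922), Arap3 (0.920), Nuak1 (0.899) and Mef2c (0.892). Crybb1 and Cryba4 encode crystallins. Crybb1 was at 141 and 155 RPKM in BNAP/GRP1 1 and 2 and at 252 and 123 RPKM in GRP2/MP3 1 and 2, and it was listed at 0 in both gates of batch 3. After removal of the batch means the most alike were Unc93b1 (0.994), Nckap1l (0.994), Vav1 (0.992), Cd86 (0.988) and Plek (0.987), genes used by many kinds of leukocyte. This second ranking ignores the level of batch 3.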

How the data were processed

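The deposited table held 45705 genes and RPKM values for 20 libraries, made by the authors with nf-core/rnaseq. Per the labels, the tools were FastQC 0.11.9, cutadapt 3.4, STAR 2.6.1 to GRCm38, Salmon 1.9.0 and DESeq2 1.26.0. PolyA RNA was amplified before library preparation. Gene lengths, read totals and the annotation release were not given in the sources used here. A further 26 columns were nameless and empty. The 27614 genes that reached 1 RPKM in 4 or more libraries were tested on log2(RPKM + 1), with a pseudocount of 1, with limma 3.58.1 (lmFit, and eBayes with trend) in R 4.3.3. Adjusted p-values are Benjamini-Hochberg values over those genes, read at 0.05. Groups came from the labels. Replicate numbers are batch numbers, and the labels give the batch. Deviations from the population means correlated within batches (medians 0.337, 0.262, 0.769 and 0.581 in batches 1 to 4), so batch was used as a block in a second fit. The median between batches was -0.204, but taking out the population means pushes it below 0, so nothing is read from it. Pups of a litter were pooled, and the labels number batches without saying whether each was 1 litter. A difference past 2 log2 units was counted within single batches, which have no replicate. Members and gene lists were chosen with earlier results of these data known, and so were the comparisons. Gene positions were taken from GENCODE vM21 on GRCm38 and promoters from RefSeq. Genes outside the set were named by rank of r (10, and 5 after removal of batch means), and list genes by role. Depth was estimated from the most frequent value of RPKM times length over genes with 1 annotated transcript, taken as 1 read, and is approximate. In BNAP/GRP1 4 that value held 184 genes, against 121 at the next most frequent. The peak was weak in some libraries, as in PFMP 2 with 17 genes against 16. The tests were checked on simulated data. Clec7a and Dlx6os1 had 2 entries each, and the one with the higher mean was used. A gene of the lists is not reported here by name.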

Additional observations from a re-analysis of the deposited data

Results flagged for a closer look

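Of 45 sets of 4 libraries (9 genes in 5 populations), 9 held a library far from the other 3 by Dixon's criterion on log2(RPKM + 1). For independent sets chance marks about 1 in 20, but the members share libraries, so these sets are not independent. Csf1r stood out in batch 3 in NSC, at 78.7 RPKM, and in GRP3, at 89.4 RPKM. Sall1 was low in GRP3 3, at 0 RPKM, and Gpr34 was low in GRP2/MP3 3, at 0.355 RPKM. Smaller departures within low levels were Siglech in PFMP 3 at 0.959 RPKM and Fcrls in GRP3 3 at 1.94 RPKM. In batch 4, Gpr34 in PFMP was at 9.23 RPKM, Siglech in NSC at 3.78 RPKM and Cx3cr1 in NSC at 2.27 RPKM, each above the other 3 libraries of its population. All 9 departures were thus in batches 3 and 4. No difference between batch 3 and the other batches in the contrast of the gates passed the adjusted threshold in the limma fit without library weights, whereas all 9 members did with weights whose estimation had not converged.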

How the results depend on the processing

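The counts of members called depended on batch 3 and on the treatment of batches and libraries. For BNAP/GRP1 against NSC, 0 members became 2 without batch 3 and 4 without batch 3 with the replicate block. The count was 5 with batches 1 and 2 alone and 8 with library weights. It was 5 without batch 3 and BNAP/GRP1 4 with the block, an alternative chosen after seeing the data. Of all 27614 genes, the number called higher went from 0 to 32, 59, 254, 696 and 91 in the same order. For GRP2/MP3 against NSC, 0 became 3 with the replicate block and 6 without batch 3 with or without the block. It became 6 in batches 1 and 2 alone, 7 with library weights and 6 without batch 3 and BNAP/GRP1 4. The genes called higher went from 0 to 48 with the block, and to 139 and 82 without batch 3 with and without it. They were 418 in batches 1 and 2 alone, 333 with weights and 206 without batch 3 and BNAP/GRP1 4. For the combined contrast, 0 became 7 with the block and 8 without batch 3 with or without it. It became 8 in batches 1 and 2 alone, 8 with weights and 8 without batch 3 and BNAP/GRP1 4. The genes called higher went from 0 to 276 with the block, and to 498 and 366 without batch 3 with and without it. They were 653 in batches 1 and 2 alone, 1055 with weights and 456 without batch 3 and BNAP/GRP1 4. Members were highest in batches 1 and 2, so the counts from these alone are a description only. For batch 3, 5 became 3 with no filter, 2 after quantile normalization, 9 with library weights (with 5086 genes higher and 15896 lower of 27614) and 2 without a population term. Weights also turned 0 into 9 for the interaction (1994 genes higher and 1539 lower). In these last 2 weighted fits, for batch 3 and for the interaction, the estimation of the weights stopped before it converged, and nothing is read from them. The cause was not tested. Leaving out 1 library at a time gave 0 to 5 members for GRP2/MP3 against NSC, with 5 without GRP2/MP3 3, and 2 to 7 for batch 3. In the other 7 comparisons it gave 0 throughout. The other settings left 85 of 107 counts equal to the main count or within 1.5 times of it. Most of these were counts that stayed at 0, so the figure does not measure the stability of the calls. With 1 library left out, Sall1 in BNAP/GRP1 against NSC ranged from -0.029 (without BNAP/GRP1 1, where it reversed) to 1.68. The median difference of GRP2/MP3 from BNAP/GRP1 was 0.41, became -0.91 with weights and -0.40 without batch 3 and BNAP/GRP1 4, and ran from -0.72 to 1.20 with 1 library left out. The split of all genes in batch 3 was 3447 higher and 6254 lower, against 4570 and 3150 after quantile normalization. The blocked fit changed no other call of members. Low depth in BNAP/GRP1 4 limits what its values can show.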
